A study of Mus musculus with 4 samples.

Results

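The 10 genes described here encode the colony–stimulating factors and cytokines by which 4T1 tumor cells act on myeloid cells. Their transcripts were measured in 2 clones of the line with and without an iron chelator. They were taken by symbol out of 49585 genes, namely Csf1, Il34, Csf2, Csf3, Il6, Lif, Il11, Tslp, Il33 and Il1a. All 10 had a row, and 9 of them, all but Il6, were expressed, which here means that the FPKM reached 1 in any library, as it did for 12669 of all genes. FPKM counts the read pairs (fragments) of a gene per unit of its length and of the library's total, so levels of different genes can be compared.

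The 4T1 line is a murine model of triple–negative breast cancer (TNBC). The clones 4T1–HM and 4T1–LM, highly and weakly metastatic, were each grown from a single cell, so each stands for 1 clone and not for all cells of its kind. Each was cultured for 48 h with DMSO alone (HM_Ctrl and LM_Ctrl) or with 50 μmol/L of deferasirox (DFX), an iron chelator, dissolved in DMSO (HM_DFX and LM_DFX), all in the same medium with fetal bovine serum. Each condition holds 1 library (n = 1 for each value), so differences could not be set against a spread between cultures and have no p–value. A difference was called from 2-fold upwards on the ratio of FPKM + 1, and the intervals cover counting error only.

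Colony–stimulating factors are secreted proteins that keep myeloid cells alive and drive their growth and maturation. Csf1 (M–CSF) acts on macrophages, Csf2 (GM–CSF) on granulocytes and macrophages, and Csf3 (G–CSF) on neutrophils, and 4T1 tumors are known for the large number of neutrophils and immature myeloid cells that they raise in mice. Il6, Lif and Il11 signal through the shared receptor chain gp130, while Tslp, Il33 and Il1a are cytokines of epithelial cells that alert the immune system. Many cytokine mRNAs are short–lived because proteins such as tristetraprolin bind AU–rich elements, repeats of the pentamer ATTTA (in DNA letters), in the 3′ untranslated region (3′ UTR) and start decay.

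The 10 genes differed in these elements. Counted on 1 transcript per gene of GENCODE M21, the 3′ UTR of Csf2 held 9 pentamers in 317 bases, or 28.4 per kilobase, more than in 99.95% of 10651 expressed protein–coding genes. Il6 held 6 in 427 bases (14.1 per kilobase), Csf3 held 6 in 669 bases (8.97 per kilobase), and Il11 held 10 in 1194 bases (8.38 per kilobase). The remaining 6 genes held between 1 and 7, at 1.80 to 2.92 per kilobase, against a median of 1.27 per kilobase over the expressed genes. The longer element ATTTATTTA, made of overlapping pentamers, occurred 5 times in Csf2 and 3 times in Il11. It occurred in no other of the 10 genes, and in 5.76% of the expressed genes. The 30-base stretches below hold the most pentamers of each of the 4 densest 3′ UTRs, with the pentamers in capitals and the coordinates on mm10. They hold 5 pentamers in Csf2, 3 in Il11 and in Csf3, and 2 in Il6. The stretch of Lif, not shown, also holds 3, and those of Csf1, Il1a and Il33 hold 2 each. A match describes the letters and is not a measurement of mRNA decay.
Csf2, chr11:54247329-54247358, minus strand: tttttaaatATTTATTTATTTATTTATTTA
Il11, chr7:4773506-4773535, minus strand: ctttaaaaccagatcttATTTATTTATTTA
Csf3, chr11:98702984-98703013, plus strand: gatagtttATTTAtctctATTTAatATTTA
Il6, chr5:30019677-30019706, plus strand: tttaattatttttaATTTAttgataATTTA

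**Figure D1:**
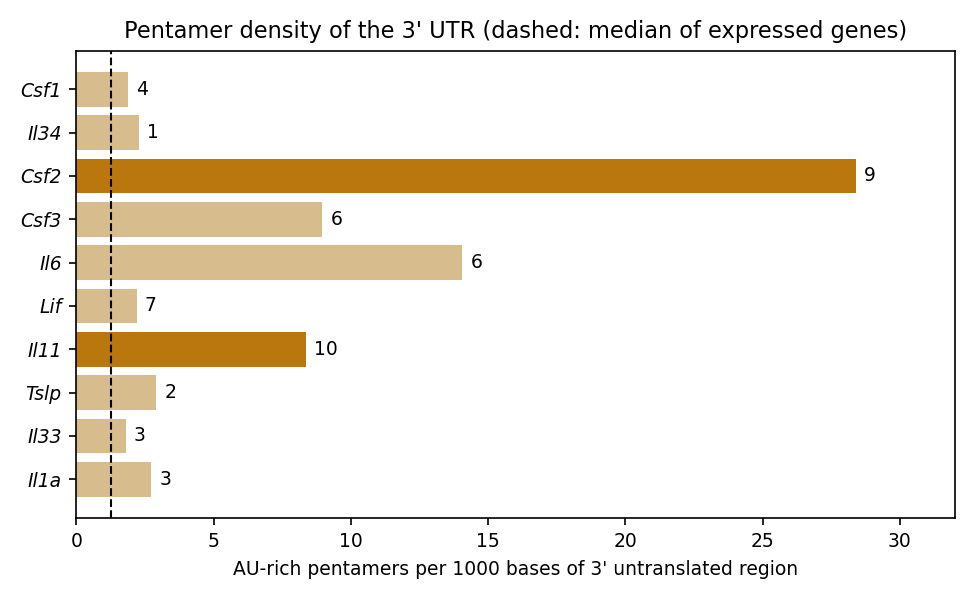
ATTTA pentamers per kilobase of the 3′ UTR for the 10 genes (bars start at 0), with the number of pentamers at the end of each bar. Dark bars mark genes that also hold the longer element ATTTATTTA, and the dashed line is the median of 10651 expressed protein–coding genes, 1.27. Csf2 stands at 28.4 and Il6 at 14.1, and the other genes at or under 8.97.

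The libraries held between 14363065 fragments (HM_DFX) and 21883855 fragments (LM_DFX), and the median expressed gene was covered by 403 to 687 fragments. Of 9 markers of the labelled cell type, 7 were expressed and present in every library, among them Krt8 at an FPKM of 134 to 963 and Cdh1 at 43.7 to 96.9. Krt14, also expressed, was at 1.90 to 54.3, while Cldn7 was at most 0.620 and Krt5 was at 0. Of 13 markers of leukocytes, 12 stayed under an FPKM of 1 in every library. Ptprc (CD45) had at most 4 fragments, and Adgre1, Ly6g, S100a9, Cd3e, Mpo and Tyrobp had none. The exception was Cd68, a lysosomal protein, at 12.9 without and 37.4 with DFX in 4T1–HM, and 12.3 without and 83.1 with DFX in 4T1–LM. Of 11 stromal markers only Pdgfra passed 1, at 2.77 to 5.50. Of the receptors that TNBC lacks by definition, Pgr was at 0 and Esr1 at most 0.529, while Erbb2 was detected at 3.80 to 12.5. In such bulk RNA, fewer cells with a transcript and less of it per cell cannot be told apart.

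Together the 10 genes reached an FPKM of 301 without and 125 with DFX in 4T1–HM, and 138 without and 84.9 with DFX in 4T1–LM. The leading transcript differed between the conditions. Tslp made up 55.0% of the sum in HM_Ctrl and 24.3% in HM_DFX, Csf1 42.1% in LM_Ctrl, and Lif 24.7% in LM_DFX. Next below Tslp in HM_Ctrl stood Csf3, Lif, Csf1 and Il34, and the counting intervals of neighbours in this order overlapped only for Il33 and Il11. In LM_DFX, Lif and Csf3 at the top could not be separated by their intervals, nor could Csf1 and Csf2, Il1a and Tslp, or Il33 and Il6.

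**Figure D2:**
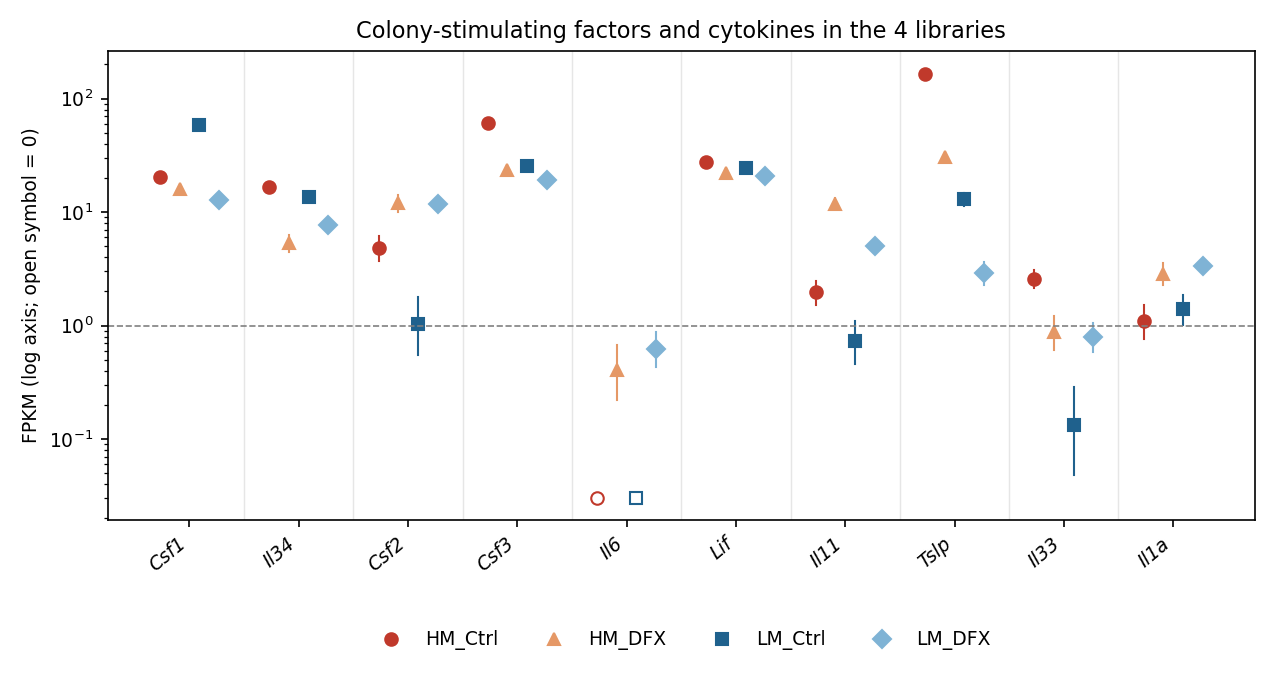
FPKM of the 10 genes in the 4 libraries on a log axis; lines are 95% counting intervals, open symbols mark a value of 0, and the dashed line is an FPKM of 1. Tslp spans 2.90 to 165 and Csf2 1.03 to 11.9, while Lif stays between 20.97 and 27.5.

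Without DFX, the question was how the metastatic clones differ before treatment. HM_Ctrl was higher than LM_Ctrl for 4 of the 9 expressed genes (Tslp, Il33, Csf2 and Csf3), where 3.65% of all expressed genes were higher, and lower for 1 (Csf1), where 3.15% were lower. Il33 reached an FPKM of 1 in HM_Ctrl alone, so its call rests on the library through which it passed the filter. The median difference of the 9 genes was 0.78 on the log2 scale, against 0.01 over all expressed genes. The genes were chosen as a group with earlier results of these data known, so these counts describe them and are not a test.

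**Figure D3:**
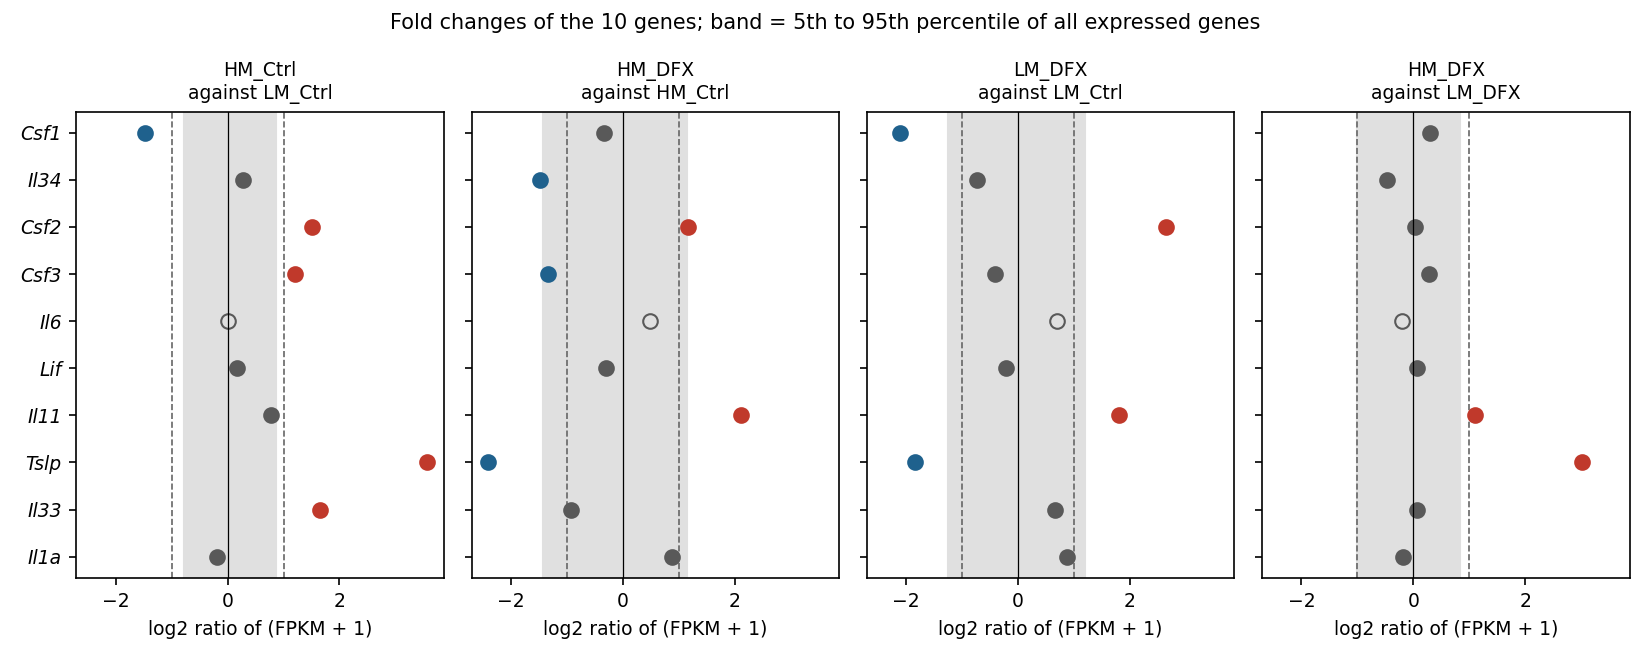
Log2 ratio of FPKM + 1 for the 10 genes in the 4 comparisons; red and blue points are genes called higher and lower at 2-fold (dashed lines), grey points are not called, Il6 is open because it was not expressed, and the grey band spans the 5th to 95th percentile of the 12669 expressed genes. Tslp reaches 3.57 between the control clones and Csf1 −2.10 under DFX in 4T1–LM.

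Csf1, the survival factor of macrophages, is encoded on mm10 chr3:107741048-107760469. Its FPKM was 20.3 without and 15.9 with DFX in 4T1–HM, and 58.1 without and 12.8 with DFX in 4T1–LM, from 1799, 1208, 4825 and 1474 fragments. LM_Ctrl stood alone at the top, and the other libraries lay close together. By fragments per library total, Csf1 was 2.85-fold lower in HM_Ctrl than in LM_Ctrl (95% interval 2.70 to 3.02). It was 4.55-fold lower in LM_DFX than in LM_Ctrl (4.29 to 4.83), and 1.28-fold lower in HM_DFX than in HM_Ctrl (1.19 to 1.38), which was not called.

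Il34 encodes the other ligand of the receptor of Csf1. Its FPKM was 16.5 without and 5.30 with DFX in 4T1–HM, and 13.5 without and 7.67 with DFX in 4T1–LM. Both control libraries lay above both DFX libraries. The fall in 4T1–HM was 3.12-fold (2.60 to 3.77) and was called, while the ratio in 4T1–LM was 1.76-fold (1.52 to 2.04) and was not called.

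Csf2 lies on chr11:54247271-54249667. Its FPKM was 4.78 without and 11.9 with DFX in 4T1–HM, and 1.03 without and 11.7 with DFX in 4T1–LM, from 64, 137, 13 and 205 fragments. The DFX libraries lay close together, although the controls were 4.62-fold apart (2.52 to 9.15). The rise under DFX was 2.50-fold in 4T1–HM (1.84 to 3.41) and 11.3-fold in 4T1–LM (6.48 to 21.7). Under DFX the ratio of 4T1–HM to 4T1–LM was 1.02 (0.814 to 1.27). On the opposite strand, Gm12223 shares 96 bases (12.0%) of the Csf2 exons, and its FPKM was 2.83, 0.791, 0 and 0.606 in the same order. The strand setting of the authors' counting is not given in the sources used here, and the part of Gm12223 in the Csf2 values was not tested.

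Csf3, on chr11:98701263-98703629, had an FPKM of 60.7 without and 23.4 with DFX in 4T1–HM, and 25.6 without and 19.0 with DFX in 4T1–LM. HM_Ctrl stood apart from the other libraries. It was 2.37-fold higher than LM_Ctrl (2.15 to 2.61), and HM_DFX was 2.59-fold lower than HM_Ctrl (2.34 to 2.88). In 4T1–LM, the DFX library was 1.35-fold lower (1.20 to 1.51), which was not called. Of the 4 factors that act on myeloid growth, Csf2 was thus the only one with a higher value under DFX in each clone.

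Among the ligands of gp130, Lif, which also keeps stem cells undifferentiated, varied least of the 9 expressed genes. Its FPKM was 27.5 without and 22.1 with DFX in 4T1–HM, and 24.4 without and 20.97 with DFX in 4T1–LM, and no comparison was called. Lif was nevertheless among the 3 highest of the 10 genes in each library.

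Il11 had an FPKM of 1.96 without and 11.9 with DFX in 4T1–HM, and 0.727 without and 5.02 with DFX in 4T1–LM, from 66, 343, 23 and 221 fragments. It rose 6.06-fold in 4T1–HM (4.64 to 8.01) and 6.91-fold in 4T1–LM (4.49 to 11.1), and the ratio of the clones was 2.70-fold without DFX (1.65 to 4.54) and 2.36-fold with it (1.99 to 2.81). Only the latter was called on the scale of FPKM + 1. Of the sequence words of Il11, 5.15% also occur in another gene, the highest share among the 10 genes.

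Il6 was at 0 fragments in both control libraries, which allows an FPKM of up to 0.0738 in HM_Ctrl and 0.0785 in LM_Ctrl at 3 fragments. It had 14 fragments in HM_DFX (FPKM 0.401) and 33 in LM_DFX (FPKM 0.621). Against a floor of 3 fragments per library, the DFX library was at least 5.44-fold higher in 4T1–HM and at least 7.91-fold higher in 4T1–LM. Without the floor, with the control at its observed 0, the lower 95% limits were 3.87 and 6.08. These limits cover the counting error of both libraries and are not limits of the floor ratios. All levels stayed under an FPKM of 1.

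Tslp, a cytokine of epithelia that acts on dendritic and myeloid cells, had the widest range of the 10 genes. Its FPKM was 165 without and 30.4 with DFX in 4T1–HM, and 13.02 without and 2.90 with DFX in 4T1–LM, from 3138, 495, 232 and 72 fragments. In HM_Ctrl it exceeded 98.0% of the expressed genes. Both 4T1–HM libraries lay above both 4T1–LM libraries, and each DFX library lay below its control. By fragments, HM_Ctrl was 12.7-fold higher than LM_Ctrl (11.1 to 14.6). On the log2 scale of FPKM + 1 the difference was 3.57, above that of 99.98% of the expressed genes. The ratio under DFX was 10.5-fold (8.17 to 13.6). DFX lowered the value 5.44-fold in 4T1–HM (4.94 to 5.99) and 4.48-fold in 4T1–LM (3.43 to 5.92).

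Il33, an alarmin of the IL–1 family, was low throughout. Its FPKM was 2.57 without and 0.868 with DFX in 4T1–HM, and 0.132 without and 0.792 with DFX in 4T1–LM, from 124, 36, 6 and 50 fragments. The clones were far apart without DFX, at 19.4-fold with a wide interval (8.67 to 53.9), and their intervals overlapped with DFX, at a ratio of 1.10 (0.694 to 1.72). By fragments, Il33 was 2.95-fold lower with DFX in 4T1–HM (2.02 to 4.41) and 5.99-fold higher in 4T1–LM (2.57 to 17.1). On the scale of FPKM + 1 these were −0.93 and 0.66 and neither was called.

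Il1a, the membrane–bound and nuclear form of IL–1, had an FPKM of 1.09 without and 2.86 with DFX in 4T1–HM, and 1.38 without and 3.38 with DFX in 4T1–LM, from 36, 81, 43 and 146 fragments. Both DFX libraries lay above both controls. The ratios were 2.62-fold in 4T1–HM (1.75 to 4.00) and 2.44-fold in 4T1–LM (1.73 to 3.51), but 0.88 in each clone on the log2 scale of FPKM + 1, just under the threshold. The antisense gene Gm14023, which shares 11.2% of the Il1a exons, was at or under an FPKM of 0.154.

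Under DFX in 4T1–HM, Csf2 and Il11 rose, 2 of the 9 expressed genes, where 6.93% of all expressed genes rose. Tslp, Il34 and Csf3 fell, 3 of the 9, where 12.4% fell. The median of the 9 genes was −0.33, against −0.10 over all expressed genes. With median–ratio scaling of the libraries, the median over all genes moved to 0.0039 and the split over all genes from 878 higher and 1568 lower to 1119 and 1276, while the called genes among the 10 were the same.

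In 4T1–LM, Csf2 and Il11 rose again, 2 of the 9, where 7.09% of all expressed genes rose. Csf1 and Tslp fell, 2 of the 9, where 8.72% fell, and the median was −0.21 against −0.04. With both clones under DFX, Tslp and Il11 were higher in 4T1–HM, 2 of the 9, where 3.31% of the expressed genes were higher. None of the 9 was lower, where 5.05% were. Of the 5 genes called between the control clones, Tslp was also called between the clones under DFX. These comparisons share libraries and are not independent of each other.

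The responses of the clones to DFX were set against each other by subtracting the log2 change in 4T1–LM from that in 4T1–HM. The difference was 1.77 for Csf1, −1.48 for Csf2 and −1.59 for Il33. Of all expressed genes, 3.52% had a difference of at least 1 and 5.38% of −1 or less. For Csf3 (−0.93), Il34 (−0.74), Tslp (−0.56) and Il11 (0.32) the differences were smaller, and for Il1a (0.01) and Lif (−0.09) they were close to 0. No test of these differences is possible with 1 library each.

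**Figure D4:**
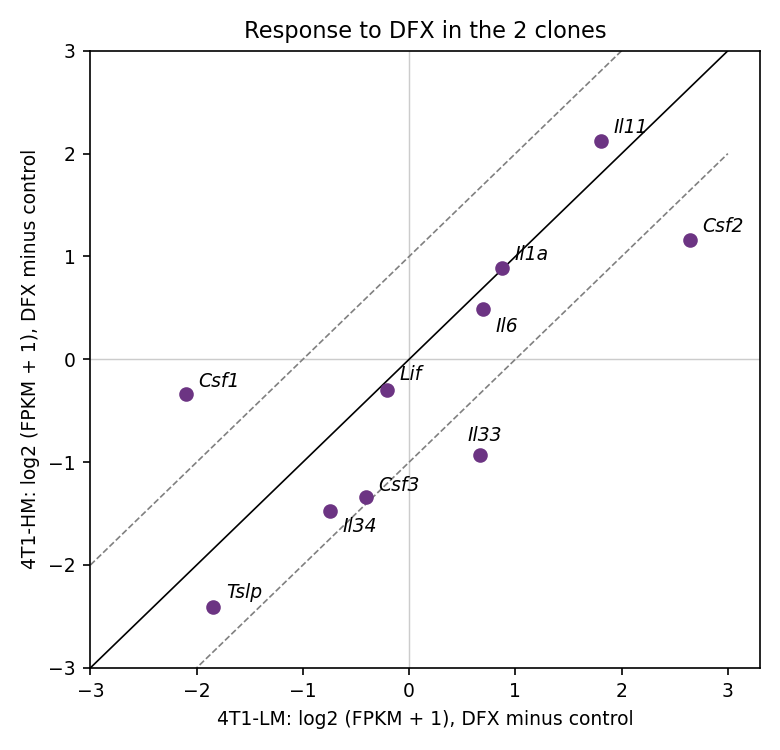
Log2 change of FPKM + 1 with DFX in 4T1–LM (horizontal axis) and 4T1–HM (vertical axis) for the 10 genes; the solid line marks equal changes and the dashed lines a difference of 1. Csf1 lies above the band, and Csf2 and Il33 below it, with Il33 on opposite sides of 0 in the clones.

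The receptors of these ligands were measured in the same libraries. Of 19 receptor chains and decoys, 9 were expressed. Of these 9, HM_Ctrl was higher than LM_Ctrl for 2 and lower for 1, against 3.65% and 3.15% of all expressed genes, with a median of 0.09. In 4T1–HM under DFX, 1 rose and 3 fell, against 6.93% and 12.4%, with a median of −0.79. In 4T1–LM none rose and 2 fell, against 7.09% and 8.72%, with a median of −0.17. With both clones under DFX, 1 was lower in 4T1–HM and none was higher, against 5.05% and 3.31%, with a median of −0.21. Csf3r and Csf2ra, the receptor of Csf3 and the specific chain for Csf2, were listed at 0 in each library, and Csf1r had 14, 10, 2 and 7 fragments in HM_Ctrl, HM_DFX, LM_Ctrl and LM_DFX, an FPKM of at most 0.171. The exons of Csf1r overlap those of the antisense gene Hmgxb3 over 15.1% of their length. Csf2rb, the shared signalling chain for Csf2, was at 1.52 in HM_Ctrl and at or under 0.453 in the other libraries, and 19.6% of its sequence words occur in another gene. It passed the filter only through HM_Ctrl, the library in which it was called higher. With the filter on the mean FPKM, the receptors called between the control clones went from 3 to 2.

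Of the other chains, gp130 (Il6st) had an FPKM of 12.8 without and 34.2 with DFX in 4T1–HM, and 13.2 without and 22.5 with DFX in 4T1–LM, and its rise was called in 4T1–HM (log2 change 1.35) and not in 4T1–LM (0.73). Its partner for Lif, Lifr, was at most 0.168, and that for Il6, Il6ra, was at 5.21, 3.81, 2.77 and 2.39 in the same order. The partner for Il11, Il11ra1, was at 0.763 to 1.32, but 57.7% of its sequence words occur in another gene, so its value is uncertain. For Tslp, the specific chain Crlf2 was at 20.1, 21.4, 8.21 and 17.1, and its partner Il7r had at most 3 fragments. Crlf2 was higher in HM_Ctrl than in LM_Ctrl, by 1.19 on the log2 scale.

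For the IL–1 family, the signalling receptor Il1r1 was at 2.32 without and 0.416 with DFX in 4T1–HM, and 7.08 without and 1.59 with DFX in 4T1–LM, so it was lower in 4T1–HM without DFX (log2 difference −1.28) and fell under DFX in each clone (−1.23 and −1.64). Its partner Il1rap fell in each clone as well (−1.32 and −1.02, the latter −0.97 and no longer called with median–ratio scaling), while the decoy Il1r2 had fragments in LM_Ctrl alone. Il1rl1, the receptor of Il33, was at most 0.184. Sigirr, which restrains IL–1 signalling, was at 28.9, 6.43, 22.2 and 18.5, and fell in 4T1–HM (−2.01). Sdc1 (syndecan–1), a further binding partner of Il34, was at 53.7, 27.6, 90.8 and 50.9 and was not called in any of the 4 comparisons. Ptprz1, another partner of Il34, had at most 5 fragments. Csf2rb2, a second common chain of the mouse, was at most 0.531, and Il11ra2 had at most 1 fragment, and 30.1% and 100% of their sequence words occur in another gene.

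**Figure D5:**
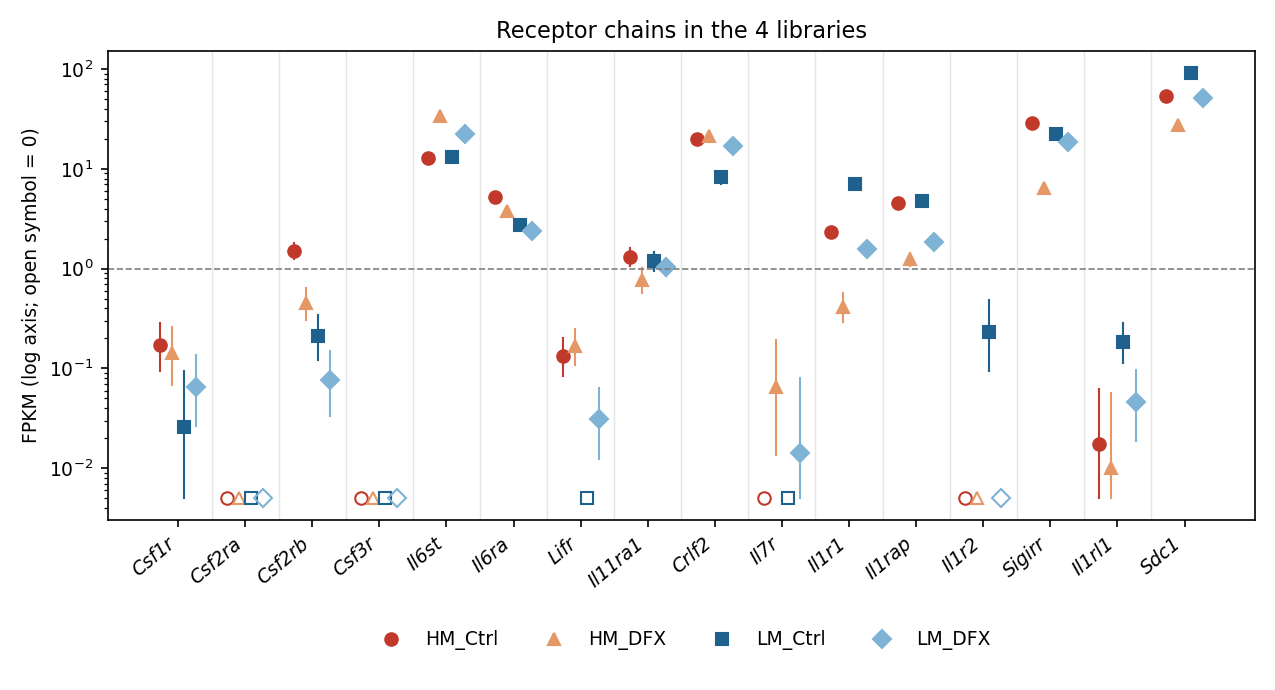
FPKM of 16 receptor chains in the 4 libraries on a log axis, with 95% counting intervals, open symbols for a value of 0, and a dashed line at 1. Csf2ra and Csf3r are at 0 in each library, Csf1r and Il1rl1 are at most 0.184, and Il6st, Crlf2, Sigirr and Sdc1 lie at or above 6.43 in each library.

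Other cytokines of the same families were read from a further list, of which 25 of 30 symbols had a row and 9 were expressed. Between the control clones, Kitl, the ligand of the receptor Kit, was the only one called, at 10.00 in HM_Ctrl and 3.56 in LM_Ctrl. Thus 1 of the 9 was higher and none was lower, against 3.65% and 3.15% of all expressed genes, and the median was 0.04. In 4T1–HM under DFX, 1 rose (Kitl, to 26.4) and 2 fell (Tgfb1, from 14.5 to 4.75, and Ctf1, from 3.83 to 0.992), where 6.93% and 12.4% of all expressed genes did, and the median was −0.62. In 4T1–LM, 4 rose and none fell, against 7.09% and 8.72%, with a median of 0.20. Il15, which sustains natural killer cells, went from 1.49 to 9.30, Kitl from 3.56 to 12.5, Vegfa from 30.9 to 74.5 and Il23a from 13.7 to 29.1. In 4T1–HM, Il15 (2.25 to 4.56), Vegfa (31.9 to 63.5) and Il23a (7.51 to 14.5) were also higher with DFX, but were not called. Vegfa lay just under the threshold there (0.97) and was called with median–ratio scaling (1.11). With both clones under DFX, 1 was higher in 4T1–HM (Kitl) and 2 were lower (Il18 and Tgfb1), against 3.31% and 5.05%, with a median of −0.52. Tgfb1 lost this call with either scaling (from −1.03 to −0.99). Tnf, Il1b and Osm were at most 0.195, and Il3, the neighbour of Csf2 in function and position, was at 0.

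Proteins that bind or degrade cytokine mRNAs were all 15 expressed. In 4T1–HM under DFX, 2 of the 15 rose and 1 fell, against 6.93% and 12.4% of all expressed genes, at a median of 0.54 against −0.10. Zfp36 (tristetraprolin) was at 3.68 without and 14.0 with DFX in 4T1–HM, and 3.55 without and 9.67 with DFX in 4T1–LM, and rose in each clone (log2 changes 1.68 and 1.23). Csf2 and Il11, the genes with the longer AU–rich element, rose in the same libraries. Of the other 2 genes with dense pentamers, Il6 was higher with DFX in each clone. Csf3 was lower (−1.34 and −0.41). A link of these changes to Zfp36 was not tested. Besides Zfp36, the called genes of this list in 4T1–HM were Tnfaip3, which rose (1.02), and Tia1, which fell (−1.16). Zfp36 was the only called gene in 4T1–LM, so 1 of the 15 rose and none fell, against 7.09% and 8.72%, at a median of 0.07. Zfp36l1 was the only one called between the clones, higher in 4T1–HM with and without DFX (1.02 and 1.11). That was 1 of the 15 each time, and none was lower. Of all expressed genes, 3.31% were higher and 5.05% lower with DFX, and 3.65% and 3.15% without.

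Transcription factors known to act on cytokine promoters were expressed in 17 of 18 cases. In 4T1–HM under DFX, 9 of the 17 rose and none fell, against 6.93% and 12.4% of all expressed genes, at a median of 1.02 against −0.10. In 4T1–LM, 6 rose and 1 fell, against 7.09% and 8.72%, at a median of 0.54 against −0.04. Atf3, a stress–induced factor, was at 45.0 without and 385 with DFX in 4T1–HM, and 5.05 without and 184 with DFX in 4T1–LM, and was the only factor called between the control clones. Relb, a subunit of NF–κB, was at 5.46, 23.9, 8.38 and 25.7, Rela, another subunit, at 44.0, 136, 34.8 and 132, and Jun, a subunit of AP–1, at 70.2, 225, 46.0 and 93.7. All of these rose in each clone. Junb, another AP–1 subunit, fell in 4T1–LM (137 to 45.3) and was not called in 4T1–HM (70.6 to 107). Between the control clones, 1 of the 17 was higher in 4T1–HM (Atf3) and none was lower, against 3.65% and 3.15%, at a median of −0.19. With both clones under DFX, 3 were higher in 4T1–HM (Jun, Junb and Atf3) and 1 was lower (Elf3). Of all expressed genes 3.31% were higher and 5.05% lower, and the median of the 17 was 0.27.

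Promoters were read for the 7 of the 10 genes with a RefSeq window of 250 bases before to 50 bases after a start on GRCm38.p6. Motifs were searched on both strands by their letters, GGGNNTTNC for NF–κB, TGANTCA for AP–1 and TTNNGNAA for C/EBP. Also searched were ACGTG, 1 form of the core of the hypoxia response element, TGACGT for CRE, and TATAAA for the TATA box. NF–κB letters were in 2 of the 7 genes (Csf1 and Il6) and in 15.2% of all 32851 windows. AP–1 letters were in 4 (Il6, Il1a, Lif and the second start of Il11) and in 7.81%, and C/EBP letters in 4 and in 40.7%. The hypoxia letters ACGTG were in none of the 7 genes, and in 19.6% of all windows. Other forms of this core were not searched, so its absence from these windows is not shown. CRE letters were in 1 (Il6) and in 7.51%, and TATA letters in 2 (Il1a and Il33) and in 13.6%. Windows of 3 genes with higher values under DFX in each clone and with AP–1 letters are shown, with matches in capitals, chosen after values and matches were seen. Of these, Il11 was called, Il1a was not, and Il6 was not expressed. Rise and AP–1 letters did not go together in all of the windows searched. Csf2, which rose in each clone, held C/EBP letters alone in its window, whose start lies 232 bases before the start in the table, and Lif held AP–1 letters while its log2 changes were −0.30 and −0.21. The Csf2 window ends before the start in the table. The bases at that start were not searched, so absence of AP–1 letters from the Csf2 promoter is not shown. The Il11 start lies 4716 bases inside the gene from the start in the table.
Il11, chr7:4778092-4778391, minus strand: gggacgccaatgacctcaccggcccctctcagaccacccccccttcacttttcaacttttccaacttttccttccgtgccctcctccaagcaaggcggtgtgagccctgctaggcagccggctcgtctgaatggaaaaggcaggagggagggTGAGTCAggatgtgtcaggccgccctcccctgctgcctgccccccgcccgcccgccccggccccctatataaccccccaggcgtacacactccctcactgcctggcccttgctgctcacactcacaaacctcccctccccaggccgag
Il1a, chr2:129309923-129310222, minus strand: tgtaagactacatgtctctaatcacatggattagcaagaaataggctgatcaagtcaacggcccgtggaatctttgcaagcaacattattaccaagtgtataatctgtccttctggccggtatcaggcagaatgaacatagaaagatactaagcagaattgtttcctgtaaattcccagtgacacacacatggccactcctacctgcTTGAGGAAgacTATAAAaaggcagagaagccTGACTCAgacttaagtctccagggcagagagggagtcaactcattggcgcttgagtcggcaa
Il6, chr5:30012864-30013163, plus strand: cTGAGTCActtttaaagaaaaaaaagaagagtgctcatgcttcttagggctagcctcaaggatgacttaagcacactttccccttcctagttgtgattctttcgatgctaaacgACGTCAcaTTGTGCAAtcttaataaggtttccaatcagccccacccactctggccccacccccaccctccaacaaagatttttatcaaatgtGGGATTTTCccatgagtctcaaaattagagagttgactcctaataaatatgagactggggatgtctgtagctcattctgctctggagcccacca

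Capitals in these windows mark the AP–1, C/EBP, TATA, CRE and NF–κB letters found, on either strand. In Il1a, the AP–1 letters start 12 bases before the start site and the TATA letters 32 bases before it. In Il6 the NF–κB letters start 44 bases before the start site, and in Il11 the AP–1 letters 98 bases before it.

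Genes downstream of gp130 and the other receptors, and their regulators, were expressed in 14 of 15 cases. In 4T1–HM under DFX, 1 rose (Pim1, a kinase induced by STAT factors, from 16.6 to 86.3) and 4 fell, with Ptpn6 (−1.64), Jak2 (−1.29) and Stat5a (−1.24) the furthest, against 6.93% and 12.4% of all expressed genes. The median of the 14 genes was −0.43. The 4th, Pias3, was at −1.01, and at −0.89 with median–ratio scaling. In 4T1–LM, Pim1 rose (8.75 to 37.7) and Ptpn6 fell (19.8 to 8.64), 1 of 14 in each direction against 7.09% and 8.72%, at a median of −0.0075. Socs3, the feedback inhibitor induced by STAT3, was at 8.65 without and 6.53 with DFX in 4T1–HM, and 13.8 without and 9.37 with DFX in 4T1–LM and was not called. Between the control clones, Ptpn6 (−1.66) and Bcl3 (−1.19) were lower in 4T1–HM. That was 2 of the 14 and none was higher, against 3.15% and 3.65% of all expressed genes, at a median of −0.015. With both clones under DFX, Ptpn6 was lower in 4T1–HM (−2.19) and Pim1 higher (1.17). That was 1 of 14 in each direction, against 5.05% and 3.31%, at a median of −0.34.

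For the release of IL–1 family cytokines and the shedding of membrane proteins, 14 of 15 symbols had a row and 12 were expressed. Gsdmd, which forms the pore through which IL–1 leaves the cell, was at 18.1 without and 3.69 with DFX in 4T1–HM, and 22.0 without and 10.3 with DFX in 4T1–LM, and fell in each clone (log2 changes −2.02 and −1.02). Casp1, the protease that matures IL–1β, was at 0.718, 0.326, 5.48 and 2.17, and fell in 4T1–LM (−1.03). It was the only gene of this list called between the control clones (−1.91). Thus 1 of the 12 was lower in HM_Ctrl and none was higher, against 3.15% and 3.65% of all expressed genes (median −0.23). Capn1, a calpain protease, also fell in 4T1–HM (−1.12). Hax1 and Rhbdf2, a regulator of the sheddase Adam17, rose in each clone (1.25 and 1.01 for Hax1, 1.18 and 1.06 for Rhbdf2), and Casp4 rose in 4T1–LM (1.19). Casp4 was at 0.129, 0.394, 0.291 and 1.95, so it passed the filter only through LM_DFX, where it was high. With the filter on the mean FPKM, the called genes went from 5 to 4 for DFX in 4T1–LM. They went from 3 to 2 between the clones under DFX. In all, 2 of the 12 rose and 2 fell in 4T1–HM, against 6.93% and 12.4% of all expressed genes (median −0.26), and 3 rose and 2 fell in 4T1–LM, against 7.09% and 8.72% (median −0.21). Several of these falls lay near the threshold. With median–ratio scaling, Gsdmd (−0.95) and Casp1 (−0.98) were no longer called in 4T1–LM, nor Capn1 (−0.99) in 4T1–HM. With both clones under DFX, 3 were lower in 4T1–HM and none was higher, against 5.05% and 3.31% (median −0.30).

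For the 3 expressed genes with the widest range, genes with the most similar pattern were sought among the 6294 protein–coding genes whose highest library reached an FPKM of 10, by the Euclidean distance of centred log2 (FPKM + 1) over the 4 libraries. The nearest genes to Csf2 were Bnip3 (distance 0.21), Slc2a1 (0.24) and Gadd45a (0.32). Slc2a1, a glucose transporter, was at 107 without and 207 with DFX in 4T1–HM, and 40.3 without and 231 with DFX in 4T1–LM. The nearest genes to Il11 were 6430548M08Rik (0.18), Pim1 (0.20) and Eif2ak3 (0.28). No gene lay as near to Tslp, for which Ntn1 (1.53), Sfrp1 (1.53) and Siglec15 (1.67) came first. Ntn1 was at 12.3, 4.31, 0.0709 and 0.0510 in the same order. Likeness over 4 libraries is a description, since few patterns are possible.

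Markers of carcinoma epithelium moved with these comparisons. Of the 7 expressed epithelial markers, 1 was higher in HM_Ctrl than in LM_Ctrl (Krt19, 101 against 46.4) and 2 were lower (Krt14, 2.48 against 54.3, and Cldn4, 18.0 against 43.2), where 3.65% and 3.15% of all expressed genes were. In 4T1–HM under DFX 4 fell and none rose, against 12.4% and 6.93%, though Epcam (−1.003) and Cdh1 (−1.07) lost the call with median–ratio scaling (−0.87 and −0.93). In 4T1–LM 2 fell and 1 rose, against 8.72% and 7.09%, and with both clones under DFX 3 were lower in 4T1–HM and none was higher, against 5.05% and 3.31%. Krt8 was at 593 without and 134 with DFX in 4T1–HM, and 963 without and 339 with DFX in 4T1–LM. The FPKM of the 13 leukocyte markers summed to 13.6 and 38.4 in 4T1–HM without and with DFX, and to 12.3 and 83.3 in 4T1–LM, nearly all of it from Cd68. The part of these changes in the cytokine values was not tested.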

How the data were processed

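RNA was measured in 4 cultures, 1 library per condition, grouped by their labels. The authors selected poly(A) RNA, made directional libraries and sequenced paired ends. The submitters' processing notes name FastQC, Trimmomatic, HISAT2, featureCounts and the build mm10, without versions. The values deposited by the authors are FPKM for 49585 genes. The authors called genes with edgeR, a step not repeated here for want of replicates.

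Log2 ratios of FPKM + 1 were called from 2-fold among genes whose FPKM reached 1 in any library. FPKM were turned back into fragments with exon lengths of GENCODE M21, on the same build. Of 18236 genes above 0 with equal coordinates, 96.8% were whole in all 4 libraries within 0.02, and 3095 genes, Il11 and Tslp among them, used the smallest length that made their values whole. Recovered fragments made up 99.4% to 99.5% of each solved total. Ratios and their 95% intervals (Clopper–Pearson, conditional on the sum) were computed on fragments without a pseudocount. A count of 0 was set to a floor of 3 fragments for the smallest ratio given, but not for the intervals. Intervals and floors leave out the variation between cultures, and PCR duplicates are not independent. Library totals were between 14363065 and 21883855 fragments.

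The 10 genes and all lists were chosen with earlier results of these data known. The lists came from general knowledge. The leukocyte list was used without 1 gene, which is not reported here. Named besides the 10 genes were the receptor chains, up to 3 expressed genes per list and comparison with the largest change, and the 3 nearest patterns. Further genes with values in the text, such as Socs3, Tnf and the markers, were chosen for their role, and where a called gene was the 4th of its list, after its values were seen. Shared sequence is the percent of a gene's 31-base words that occur in another gene of M21. Promoters are from RefSeq. Tried as well were thresholds of 1.5-fold and 4-fold, upper–quartile and median–ratio scaling, leaving out the filter or setting it on the mean FPKM, and a smaller pseudocount (0.1). The plain ratio without a pseudocount was added after seeing the data. Calling and intervals were tried on simulated counts with counting error only. The simulation held no variation between cultures, so it does not show how calls would hold between cultures. Python 3.11.15, numpy 2.4.6, pandas 2.3.3, scipy 1.17.1 and matplotlib 3.10.9 were used.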

Additional observations from a re-analysis of the deposited data

Results flagged for a closer look

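Il33 changed in opposite directions in the clones. On the scale of FPKM + 1, the log2 change with DFX was −0.93 in 4T1–HM and 0.66 in 4T1–LM, a difference of −1.59. The difference was not tested, since each arm holds 1 library. The library with the lowest value, LM_Ctrl, held 6 fragments of Il33, and HM_DFX and LM_DFX held 36 and 50.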

How the results depend on the processing

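Neither scaling nor either filter changed which of the 10 genes were called in any of the 4 comparisons. For the difference of the responses, neither scaling, the pseudocount of 0.1 nor the plain ratio changed the called genes. The number called between the control clones was 5 and became 1 at a 4-fold threshold (Tslp). It went from 5 to 2 for DFX in 4T1–HM (Il11 and Tslp), from 4 to 2 for DFX in 4T1–LM (Csf1 and Csf2) and from 2 to 1 between the clones under DFX (Tslp). At 1.5-fold it became 7 for DFX in 4T1–LM. With a pseudocount of 0.1, or with none, Il1a and Il33 were also called under DFX in each clone, and Il11 between the control clones. Here Il33 was lower with DFX in 4T1–HM and higher in 4T1–LM. Over all expressed genes, the counts higher and lower went with a pseudocount of 0.1 from 462 and 399 to 883 and 674 between the control clones, from 878 and 1568 to 1234 and 2397 for DFX in 4T1–HM, from 898 and 1105 to 1349 and 1721 for DFX in 4T1–LM, and from 419 and 640 to 810 and 1183 between the clones under DFX. Without a pseudocount they were 969 and 750, 1287 and 2524, 1452 and 1850, and 889 and 1289. At 1.5-fold they were 1329 and 1102, 2031 and 3297, 2088 and 2528, and 1260 and 1848, and at 4-fold 42 and 55, 111 and 166, 180 and 134, and 36 and 59. Of 48 recomputed counts of the other gene lists per comparison, between 30 and 37 stayed within 1.5 times. Of 157 recomputed fold changes of single genes, 146 were counted as within the counting error, 11 moved by more and none of the called ones changed sign. Comparisons of Il6 with a control library at 0 fragments have no finite interval and could only be counted as within it. With a pseudocount of 0.1, the log2 change of Il6 went from 0.49 to 2.33 in 4T1–HM and from 0.70 to 2.85 in 4T1–LM. Over the genes of all lists, median–ratio scaling ended 8 calls and added 4, upper–quartile scaling ended 1 and added none, and none of these changed sign. The labels give no replicate numbers that pair libraries. A fit of DFX with the clone as a block over the 4 libraries was not run. Depth limits Il6, Il33 in LM_Ctrl and Csf2 in LM_Ctrl, with 0, 6 and 13 fragments.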
